A study of Mus musculus with 7 samples.

Results

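Decorin (Dcn), biglycan (Bgn), asporin (Aspn), fibromodulin (Fmod), lumican (Lum), prolargin (Prelp), osteoglycin (Ogn), podocan (Podn) and versican (Vcan) are described here in mouse embryonic fibroblasts that lack p53. These 9 genes, 8 small leucine-rich proteoglycans and the large proteoglycan versican, were taken by gene symbol from a table of 29955 gene rows. All 9 passed the filter on low values, a mean of at least 10 normalized reads, which left 16900 genes to test. RNA was sequenced from cultured fibroblasts of the C57BL/6 strain in 3 genotypes, and every genotype lacks p53. The Mdm2 C462A group (2 libraries) is p53-null with a knocked-in C462A substitution in Mdm2, the p53/Mdm2 KO group (2 libraries) lacks both p53 and Mdm2, and the p53 KO group (3 libraries) lacks p53 with no change to Mdm2 named. Mdm2 ubiquitinates p53 and so targets it to the proteasome, and the substitution hits its catalytic RING domain. The study title asks what Mdm2 does to gene expression without p53. Libraries are called here by genotype and replicate number, as in Mdm2 C462A 1. The sources used here do not give how the alleles were made, how old the embryos were, or whether replicates of a genotype are different embryos.

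Small leucine-rich proteoglycans are secreted proteins built on leucine-rich repeats, and most bind collagen fibrils in the extracellular matrix. Class I members (Dcn, Bgn) carry chondroitin or dermatan sulfate chains and also bind growth factors of the TGF-beta family. Class II members (Fmod, Lum, Prelp) belong to the branch that carries keratan sulfate, although Prelp binds heparin instead. Versican is a long core protein with many chondroitin sulfate chains that binds hyaluronan, and it is abundant in embryonic mesenchyme.

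No member differed between genotypes at a limma adjusted p under 0.05. Bgn was the most abundant and the steadiest. Lum, Podn, Dcn, Fmod and Vcan each differed by more than 10-fold between libraries of a single genotype. Fmod and Ogn were highest, and Vcan lowest, in p53 KO 1. Prelp was the only member with an unadjusted p under 0.05, being lowest in both Mdm2 C462A libraries.

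Read totals ran from 28468283 in p53/Mdm2 KO 2 to 41453822 in p53 KO 2. A gene with a count of 0 could still have had up to 3 reads, or 2.65 to 3.86 normalized reads by library, from counting error alone. All 10 fibroblast markers had reads in every library, but p53 KO 1 stood apart. It had 3456 normalized reads of Col1a2 and 99.1 of Thy1, against 175050 to 547553 and 6592 to 37385 in the other 6 libraries. The sum of 5 adipocyte markers was 7379 in p53 KO 1 and 173 to 365 elsewhere, although the adipocyte markers Plin1 and Cfd were at 0 in all 7 libraries. Counts in Mdm2 C462A 2 were also far from those of the other libraries. Its chi-square per degree of freedom over genes was 236.8 to 515.1 against each of the others, its own replicate included, compared with 308 to 515.1 for p53 KO 1, while Mdm2 C462A 1 was nearest to p53/Mdm2 KO 1 at 44.17. Mdm2 had 2033 and 2887 normalized reads in Mdm2 C462A, 1575 and 2334 in p53/Mdm2 KO, and 1746, 1994 and 1914 in p53 KO, so its reads were not lower in both libraries labelled as lacking Mdm2. Trp53 had 1339 and 1668 in Mdm2 C462A, 1603 and 1775 in p53/Mdm2 KO, and 687.1, 1396 and 1244 in p53 KO, although every label names p53 loss. Since the structure of the alleles is not given, gene-level reads check none of these labels.

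Promoters are shown for the 2 pairs of members with the highest Pearson r over the libraries, Aspn with Podn and Fmod with Ogn. Each window is 300 bases, from 250 before the transcription start to 50 after it, from RefSeq on GRCm38.p6, in the direction of the gene. RefSeq windows matched 7 of the 9 members, and Podn had 2, of which the one with motif matches is printed. Capitals mark matches on either strand to the TATA box TATAAA, the GC box GGGCGG, the AP-1 site TGANTCA, the TEAD site GGAATG or the Smad-binding element GTCTAGAC. The Aspn window lies at chr13:49544193-49544492 on the plus strand, Podn at chr4:108031905-108032204 on the minus strand, Fmod at chr1:134037004-134037303 on the plus strand and Ogn at chr13:49607765-49608064 on the plus strand.
Aspn: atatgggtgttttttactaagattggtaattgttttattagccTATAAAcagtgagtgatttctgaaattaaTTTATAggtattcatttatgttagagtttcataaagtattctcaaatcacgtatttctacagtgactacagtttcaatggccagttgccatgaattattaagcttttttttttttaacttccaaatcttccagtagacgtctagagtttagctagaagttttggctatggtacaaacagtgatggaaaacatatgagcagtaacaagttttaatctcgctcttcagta
Podn: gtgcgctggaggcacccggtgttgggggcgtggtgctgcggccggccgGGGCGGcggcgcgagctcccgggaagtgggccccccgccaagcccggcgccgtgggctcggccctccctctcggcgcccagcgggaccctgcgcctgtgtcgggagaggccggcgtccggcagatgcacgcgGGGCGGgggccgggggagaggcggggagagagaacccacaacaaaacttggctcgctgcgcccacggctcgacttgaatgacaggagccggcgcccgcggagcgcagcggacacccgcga
Fmod: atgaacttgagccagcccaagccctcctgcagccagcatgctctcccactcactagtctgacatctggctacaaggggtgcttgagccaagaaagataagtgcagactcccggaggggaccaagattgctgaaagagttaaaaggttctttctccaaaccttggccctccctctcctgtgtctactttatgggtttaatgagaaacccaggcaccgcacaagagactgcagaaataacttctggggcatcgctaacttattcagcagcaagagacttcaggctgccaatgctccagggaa
Ogn: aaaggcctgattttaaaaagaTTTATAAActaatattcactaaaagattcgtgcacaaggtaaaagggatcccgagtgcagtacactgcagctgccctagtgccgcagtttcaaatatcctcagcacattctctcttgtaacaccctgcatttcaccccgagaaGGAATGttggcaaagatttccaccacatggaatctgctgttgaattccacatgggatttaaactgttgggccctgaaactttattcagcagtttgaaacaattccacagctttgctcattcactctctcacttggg
The paired promoters did not look alike in base composition or in these motifs. The Aspn window was 31% G and C and held TATA boxes at -207 and, on the opposite strand, at -178 from the start. The printed Podn window was 77% G and C and held GC boxes at -202 and -70. The other Podn window, chr4:108030937-108031236 on the minus strand, was 63% G and C and held 0 matches. Fmod held none of the 5 motifs at 51% G and C. Ogn, at 42.3%, held a TATA box at -227, which overlaps one on the opposite strand at -229, and a TEAD site at -86. Among 32851 windows of the same length, 13.6% held the TATA box, 35.7% the GC box, 7.81% the AP-1 site, 14.7% the TEAD site and 0.213% the Smad-binding element, and the median window was 52.7% G and C. A match is a string of letters and not evidence of binding.

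**Figure D1:**
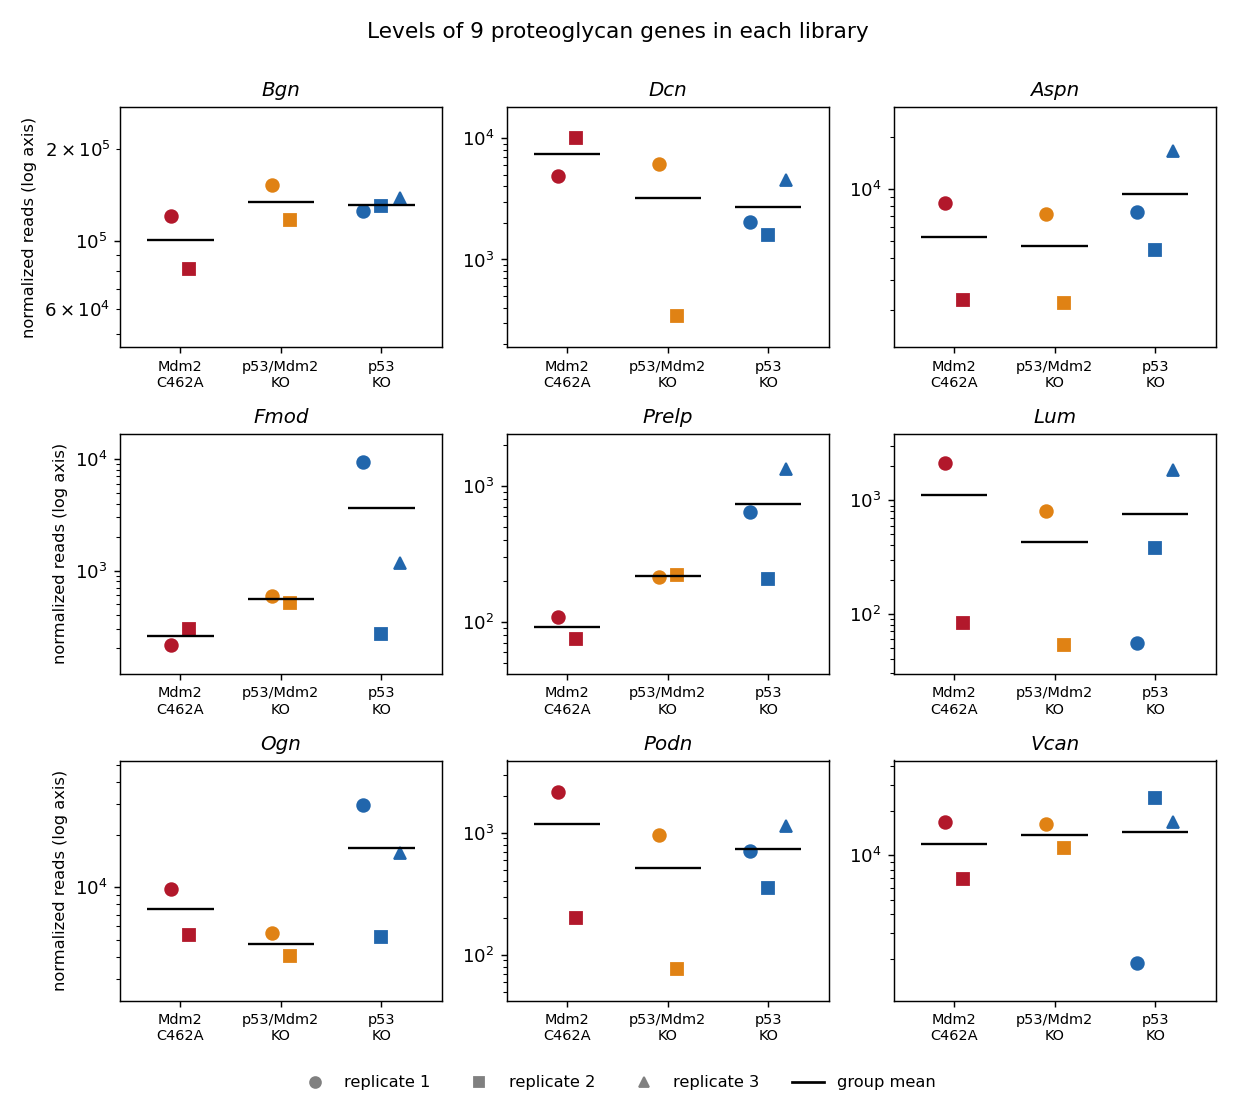
Normalized reads of the 9 genes in each of 7 libraries, on log axes, with 1 panel per gene. Points are single libraries, with the shape giving the replicate number, and bars are group means. Bgn points lie close together, between 81309.8 and 151807, while Lum, Podn and Dcn points of a single genotype lie far apart and Fmod is highest in p53 KO replicate 1 at 9413.

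Levels between genes were compared per kilobase of exon, since versican's annotated exons span 14.462 kb and asporin's 2.354 kb. Each length is the union of exons over all annotated transcripts of the gene, such as 5.838 kb for Dcn and 6.099 kb for Bgn. Lengths of single transcripts were not tried, and the order of genes may depend on this choice. Bgn came first, with a mean over the 7 libraries of 20251 normalized reads per kb. Its lowest library, at 13332 per kb, was above the highest library of the next gene, Ogn, at 11470 per kb. Ogn followed with a mean of 4178 per kb and Aspn with 2925 per kb, and their ranges over libraries overlapped. Vcan had 931 per kb and Dcn 723 per kb. Fmod averaged 539 per kb but had a median of only 156, because a single library carried most of its reads. Lum averaged 314 per kb with a median of 154, Podn 188 and Prelp 111 per kb. From Ogn down, each gene overlapped its neighbour in this order. The lowest read count behind any member value was 41 reads, for Lum.

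Dcn, the class I proteoglycan that binds collagen and holds TGF-beta, had its highest level in an Mdm2 C462A library and its lowest in a p53/Mdm2 KO library. It had 4877 and 10016.5 normalized reads in the Mdm2 C462A libraries, 6131 and 341 in the p53/Mdm2 KO libraries, and 2024, 1592 and 4552 in the p53 KO libraries. Both Mdm2 C462A libraries were above all 3 p53 KO libraries, while the p53/Mdm2 KO libraries lay on both sides of them. Means were 7447 ± 3634 (SD, n = 2) in Mdm2 C462A, 3236 ± 4094 (SD, n = 2) in p53/Mdm2 KO and 2723 ± 1599 (SD, n = 3) in p53 KO. On the deposited log2-like scale the difference between Mdm2 C462A and p53 KO was 1.51 (SE 1.15, limma adjusted p = 0.693). Between p53/Mdm2 KO and p53 KO it was -0.73 (SE 1.15, limma adjusted p = 1), and without p53/Mdm2 KO 2 it turned to 1.32. Between Mdm2 C462A and p53/Mdm2 KO it was 2.23 (SE 1.26, limma adjusted p = 1), and without p53/Mdm2 KO 2 it was 0.19. Without Mdm2 C462A 2 the Mdm2 C462A differences were 0.99 against p53 KO and 1.72 against p53/Mdm2 KO. In these bulk libraries, fewer cells of a type and less RNA per cell cannot be told apart.

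Bgn, the other class I member that carries chondroitin or dermatan sulfate chains, moved little. It had 120601 and 81309.8 normalized reads in Mdm2 C462A, 151807 and 116987 in p53/Mdm2 KO, and 124876, 130448 and 138560 in p53 KO. The Mdm2 C462A libraries lay below the p53 KO range, and the p53/Mdm2 KO libraries lay on either side of it. The highest library had 1.87 times the lowest, the smallest such ratio of the 9 genes. The difference was -0.41 (SE 0.31, limma adjusted p = 0.692) for Mdm2 C462A against p53 KO, 0.02 (SE 0.31, limma adjusted p = 1) for p53/Mdm2 KO against p53 KO, and -0.43 (SE 0.34, limma adjusted p = 1) between the Mdm2 mutants. Without Mdm2 C462A 2 the Mdm2 C462A differences shrank to -0.12 against p53 KO and -0.14 against p53/Mdm2 KO. The p53/Mdm2 KO difference changed sign without p53/Mdm2 KO 1 (-0.17) and without p53 KO 1 (-0.01).

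Aspn, a class I member with an aspartate-rich stretch that binds collagen, split each genotype. It had 8309 and 2295 normalized reads in Mdm2 C462A, 7195 and 2215 in p53/Mdm2 KO, and 7319, 4444 and 16424 in p53 KO. Each Mdm2 genotype had 1 library within the p53 KO range and 1 below it. The difference was -0.89 (SE 0.811, limma adjusted p = 0.745) for Mdm2 C462A against p53 KO and -1.02 (SE 0.811, limma adjusted p = 1) for p53/Mdm2 KO against p53 KO. Between the Mdm2 mutants it was 0.13 (SE 0.888, limma adjusted p = 1). Without Mdm2 C462A 2 the first difference changed sign, to 0.03, and the last changed sign without Mdm2 C462A 1 (-0.79) or p53/Mdm2 KO 2 (-0.72).

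Fmod, a class II proteoglycan that shapes collagen fibrils in tendon, was dominated by a single library. It had 212 and 302 normalized reads in Mdm2 C462A, 590 and 516 in p53/Mdm2 KO, and 9413, 272 and 1159 in p53 KO. The level in p53 KO 1 was 8.12 times that of the next library, and p53 KO 2 lay inside the Mdm2 C462A range. Means were 257 ± 63.0 (SD, n = 2) in Mdm2 C462A, 553 ± 52.2 (SD, n = 2) in p53/Mdm2 KO and 3615 ± 5041 (SD, n = 3) in p53 KO. The difference from p53 KO was -2.44 (SE 1.3, limma adjusted p = 0.569) for Mdm2 C462A and -1.37 (SE 1.3, limma adjusted p = 1) for p53/Mdm2 KO. Without p53 KO 1 these became -1.10 and -0.04. Between the mutants, both Mdm2 C462A libraries were below both p53/Mdm2 KO libraries, with a difference of -1.06 (SE 1.42, limma adjusted p = 1).

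Prelp, a class II protein that anchors basement membranes to connective tissue, was lowest in Mdm2 C462A. It had 108 and 74.97 normalized reads in Mdm2 C462A, 212 and 223 in p53/Mdm2 KO, and 642, 208 and 1339 in p53 KO. The Mdm2 C462A libraries were below all 5 others, and p53 KO 2 was close to the p53/Mdm2 KO libraries. Means were 91.6 ± 23.5 (SD, n = 2) in Mdm2 C462A, 218 ± 7.26 (SD, n = 2) in p53/Mdm2 KO and 729 ± 570 (SD, n = 3) in p53 KO. Mdm2 C462A against p53 KO gave a difference of -2.42 (SE 0.698), with a limma unadjusted p of 0.0119 that did not pass adjustment (adjusted p = 0.437). Leaving out 1 library at a time kept it between -3.11 and -1.82, and without Mdm2 C462A 2 it was -2.20, with a limma unadjusted p of 0.0641 (adjusted p = 0.999). The difference was -1.31 (SE 0.698, limma adjusted p = 1) for p53/Mdm2 KO against p53 KO and -1.11 (SE 0.765, limma adjusted p = 1) between the mutants. The sum of 6 smooth muscle markers was also low in Mdm2 C462A, at 91062 and 95536 normalized reads, against 145143 and 186632 in p53/Mdm2 KO and 125195, 250501 and 298804 in p53 KO. Of the 6, Cnn1 (-2.11), Acta2 (-1.29) and Tagln (-0.97) lay below all 3 p53 KO libraries in both Mdm2 C462A libraries, with limma unadjusted p of 0.0202, 0.0252 and 0.0407 and adjusted p of 0.437 to 0.468. Over all genes 14.4% were lower without overlap in this comparison, and 5.44% were lower at an unadjusted limma p under 0.05. Myh11, Des and Smtn overlapped, and Des was highest of all libraries in Mdm2 C462A 2, at 2388 normalized reads. None of the 6 was at 0 in any library, and their part in the Prelp level was not tested.

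Lum, the class II proteoglycan that sets fibril diameter in the cornea, varied by library more than by genotype. It had 2156 and 82.0 normalized reads in Mdm2 C462A, 810 and 52.8 in p53/Mdm2 KO, and 55.4, 376 and 1849 in p53 KO. Every genotype held both a high and a low library, and all groups overlapped. The higher library had 26.3 times the lower in Mdm2 C462A, 15.3 times in p53/Mdm2 KO and 33.3 times in p53 KO. Differences between genotypes were 0.30 (SE 1.87, limma adjusted p = 0.97) for Mdm2 C462A against p53 KO and -0.64 (SE 1.87, limma adjusted p = 1) for p53/Mdm2 KO against p53 KO. Between the mutants the difference was 0.94 (SE 2.05, limma adjusted p = 1). Each of the 3 changed sign without a single library. Mdm2 C462A against p53 KO was -1.91 without Mdm2 C462A 1 and -0.87 without p53 KO 1. The p53/Mdm2 KO difference was 1.12 without p53/Mdm2 KO 2 and 0.51 without p53 KO 3. Between the mutants it was -1.27 without Mdm2 C462A 1 and -0.82 without p53/Mdm2 KO 2.

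Ogn, a member of a separate class first known from bone, had its 2 highest levels in p53 KO libraries. It had 9735 and 5384 normalized reads in Mdm2 C462A, 5465 and 4074 in p53/Mdm2 KO, and 29431, 5227 and 15726 in p53 KO. The third p53 KO library, replicate 2, lay among the Mdm2 mutant libraries. The difference from p53 KO was -0.89 (SE 0.699, limma adjusted p = 0.7) for Mdm2 C462A and -1.51 (SE 0.699, limma unadjusted p = 0.0718, adjusted p = 1) for p53/Mdm2 KO. Without p53 KO 1 these were -0.32 and -0.94. Between the mutants it was 0.62 (SE 0.766, limma adjusted p = 1).

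Podn, first described in kidney podocytes, followed the pattern of Lum in the Mdm2 mutants. It had 2178 and 201 normalized reads in Mdm2 C462A, 960 and 76.0 in p53/Mdm2 KO, and 716, 355 and 1138 in p53 KO. In each mutant genotype replicate 1 was above replicate 2 by more than 10-fold (10.8 times in Mdm2 C462A and 12.6 times in p53/Mdm2 KO), against 3.20 times between the extremes of p53 KO. The difference was 0.03 (SE 1.28, limma adjusted p = 0.996) for Mdm2 C462A against p53 KO, -1.16 (SE 1.28, limma adjusted p = 1) for p53/Mdm2 KO against p53 KO and 1.19 (SE 1.41, limma adjusted p = 1) between the mutants. Mdm2 C462A against p53 KO changed sign without Mdm2 C462A 1 (-1.63) and without p53 KO 2 (-0.41). The p53/Mdm2 KO difference changed sign without p53/Mdm2 KO 2 (0.52), and the difference between the mutants without that library (-0.49) or Mdm2 C462A 1 (-0.47).

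Vcan was far lower in p53 KO 1 than in the other 6 libraries. It had 16708 and 6969 normalized reads in Mdm2 C462A, 16304.5 and 11290.1 in p53/Mdm2 KO, and 1891, 24205 and 16847.5 in p53 KO. The p53 KO libraries thus held both the lowest and the highest level. Means were 11839 ± 6886 (SD, n = 2) in Mdm2 C462A, 13797 ± 3546 (SD, n = 2) in p53/Mdm2 KO and 14314 ± 11371 (SD, n = 3) in p53 KO. The difference from p53 KO was 0.23 (SE 1.08, limma adjusted p = 0.958) for Mdm2 C462A and 0.56 (SE 1.08, limma adjusted p = 1) for p53/Mdm2 KO. Without p53 KO 1 both changed sign, to -0.90 and -0.57. The other 2 p53 KO libraries then lay above all 4 Mdm2 mutant libraries, but only just, at 16847.5 in p53 KO 3 against 16708 in Mdm2 C462A 1. The share of all genes that separate in that setting was not counted. Without Mdm2 C462A 1 the difference of Mdm2 C462A from p53 KO was -0.40. Between the mutants the difference was -0.33 (SE 1.18, limma adjusted p = 1), and 0.30 without Mdm2 C462A 2.

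**Figure D2:**
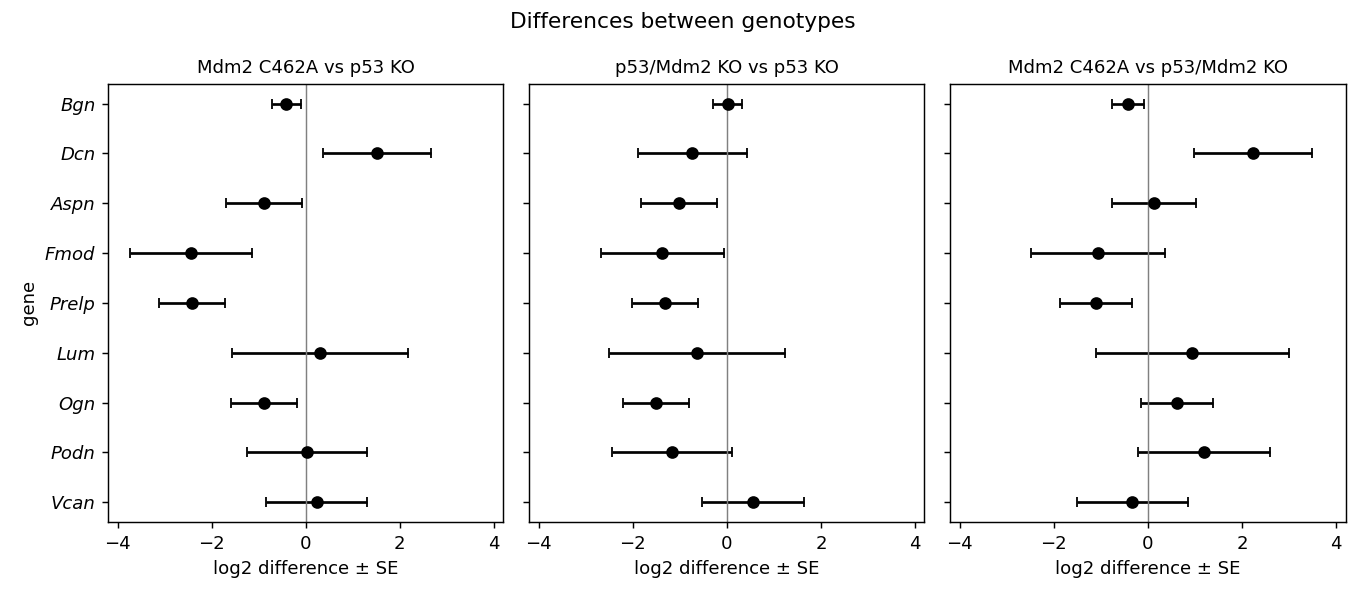
Differences on the log2-like scale (horizontal axis) for each gene (rows), as limma estimates with bars of 1 SE, in 3 panels for Mdm2 C462A against p53 KO, p53/Mdm2 KO against p53 KO, and Mdm2 C462A against p53/Mdm2 KO. Prelp lies at -2.42, -1.31 and -1.11 in the 3 panels, Bgn has the shortest bars and Lum the longest.

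Counted together, 0 of 9 members were called for Mdm2 C462A against p53 KO, as were 0% of the 16900 genes tested. At an unadjusted p under 0.05 there was 1 member of 9 (Prelp, lower), against 10.4% of all genes, of which 5.44% were lower. Libraries of both groups did not overlap for 3 members, 33.3%, against 28.6% of all genes. Dcn was the 1 without overlap that was higher (background 14.1%), and Bgn and Prelp were the 2 that were lower (background 14.4%). Members below 0 numbered 5 of 9, against 48.8% of all genes, and their median difference was -0.41, against 0.01 over all genes.

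For p53/Mdm2 KO against p53 KO, 0 of 9 members were called, as were 0% of all genes, and 0 members against 3.0% of genes had an unadjusted limma p under 0.05. The groups overlapped for all 9 members, whereas 18.2% of all genes did not overlap. Differences were below 0 for 7 of 9 members (all but Bgn and Vcan), against 51.8% of all genes, with medians of -1.02 for the members and -0.01 for all genes. Between Mdm2 C462A and p53/Mdm2 KO, 0 of 9 members and 0% of genes were called, and 0 members against 2.98% of genes had an unadjusted limma p under 0.05. Fmod and Prelp, 22.2% of the members, did not overlap and were lower in Mdm2 C462A, against 17.1% of genes that were lower without overlap and 32.9% in either direction. Differences were below 0 for 4 members, against 48.3% of genes, with medians of 0.13 and 0.01. The comparisons of both mutants with p53 KO share the same 3 p53 KO libraries.

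The spread between libraries of 1 genotype was wide for most members but not for all of them. Fmod and Prelp in p53/Mdm2 KO, and Bgn in p53 KO, had ranges below the median range of all genes. A range of more than 1 on the log2-like scale was found in Mdm2 C462A for 5 of 9 members (Dcn, Aspn, Lum, Podn and Vcan), against 13.1% of the 16900 genes. In p53/Mdm2 KO it was found for 4 of 9 (Dcn, Aspn, Lum and Podn), against 9.07% of genes, and in p53 KO for 8 of 9 (all but Bgn), against 24.4%. Among the 12859 genes that, like all members, averaged at least 100 normalized reads, the shares were 12.1% in Mdm2 C462A, 8.20% in p53/Mdm2 KO and 21.4% in p53 KO. The median range of the members was 1.04 in Mdm2 C462A, 0.53 in p53/Mdm2 KO and 2.49 in p53 KO, against 0.33, 0.31 and 0.55 over all genes in the same order. Without p53 KO 1, an alternative chosen after seeing the data, the p53 KO range exceeded 1 for 7 of 9 members (all but Bgn and Vcan), against 3.4% of genes, and the median range was 1.62 for the members and 0.20 over all genes. These shares are descriptions, with no test.

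By library, p53/Mdm2 KO 2 was the lowest of the 7 for 5 members (Dcn, Aspn, Lum, Ogn and Podn), and 15.8% of all genes tested were lowest there. In p53 KO 1, Fmod and Ogn were highest and Vcan lowest, and this library was the highest for 28.1% of all genes and the lowest for 26.4%. Lum and Podn were highest in Mdm2 C462A 1, Dcn was highest and Bgn and Prelp lowest in Mdm2 C462A 2, and Aspn and Prelp were highest in p53 KO 3.

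Lum and Podn shared their 3 highest libraries, Mdm2 C462A 1, p53/Mdm2 KO 1 and p53 KO 3, and markers of leukocytes were high in the same ones. Of the 6 markers listed, Ptprc, Emr1, Cd68 and Lyz2 had those same 3 highest libraries, and Csf1r and Itgam did not. Lyz2, the lysozyme of macrophages and neutrophils, had 781 and 7.94 normalized reads in Mdm2 C462A, 850 and 20.6 in p53/Mdm2 KO, and 6.36, 113 and 1870 in p53 KO. The sum of the 6 markers was 1264 and 324 in Mdm2 C462A, 1428 and 403 in p53/Mdm2 KO, and 529, 481 and 2954 in p53 KO. Emr1, the macrophage antigen F4/80, was at 0 in Mdm2 C462A 2, p53/Mdm2 KO 2 and p53 KO 1, and the pan-leukocyte gene Ptprc was at 0 in p53 KO 1. Over the 7 libraries the Pearson r of Lum was 0.96 with Lyz2, 0.91 with Emr1, 0.81 with Cd68, 0.75 with Ptprc, 0.44 with Csf1r and 0.04 with Itgam. For Podn it was 0.72 with Lyz2, 0.67 with Emr1, 0.86 with Cd68, 0.30 with Ptprc, 0.55 with Csf1r and 0.13 with Itgam. These are descriptions over 7 libraries of 3 genotypes that differ in depth, and whether any share a culture is not given. The part of leukocytes in the Lum and Podn levels was not tested. The fibroblast receptor gene Pdgfra was also high in those libraries, with 16430 and 3556 normalized reads in Mdm2 C462A, 10921 and 2651 in p53/Mdm2 KO, and 6863, 4409 and 11090 in p53 KO.

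**Figure D3:**
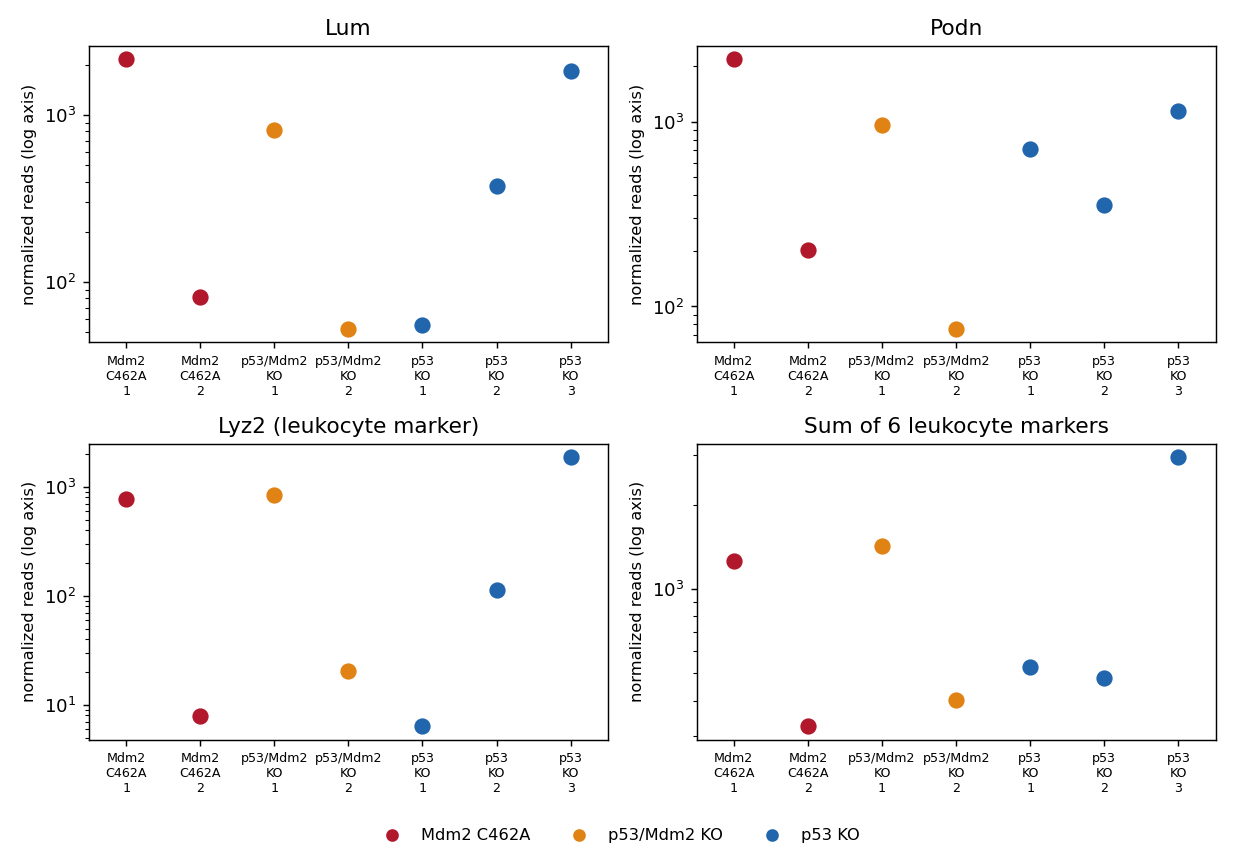
Normalized reads of Lum, Podn, the leukocyte marker Lyz2 and the sum of 6 leukocyte markers in each of the 7 libraries (horizontal axis), on log axes. Lum, Podn, Lyz2 and the sum are each highest in Mdm2 C462A 1, p53/Mdm2 KO 1 and p53 KO 3.

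Among the 36 pairs of members, none correlated over the 7 libraries at an adjusted p under 0.05 (exact permutation test, two-sided, Benjamini-Hochberg over the pairs). The closest was Aspn with Podn, with a Pearson r of 0.88 (exact p = 0.0119, adjusted p = 0.306) and a Spearman rho of 0.93 (exact p = 0.00675, adjusted p = 0.221). Without the 2 libraries farthest from the median of Aspn the r was 0.61, and within genotypes, after removing group means, it was 0.94. Fmod and Ogn had an r of 0.81 (exact p = 0.0319, adjusted p = 0.306) and a rho of 0.54 (exact p = 0.236, adjusted p = 0.678), with an r of 0.76 without the 2 farthest libraries and 0.87 within genotypes. Lum and Podn had an r of 0.80 (exact p = 0.0375, adjusted p = 0.306) and a rho of 0.89 (exact p = 0.0123, adjusted p = 0.221), with 0.63 without the 2 farthest libraries and 0.80 within genotypes. Fmod and Vcan ran opposite, with an r of -0.79 (exact p = 0.0744, adjusted p = 0.306) and a rho of -0.43 (exact p = 0.354, adjusted p = 0.678). Within genotypes their r was -0.93. Without p53 KO 1 and Mdm2 C462A 1, the 2 libraries farthest from the median of Fmod, their r was 0.18. Fmod was highest and Vcan lowest in p53 KO 1, and leaving out that library alone was not tried for this pair.

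Several members are neighbours in the genome, and neighbours did not always share their highest library. In RefSeq's order of protein-coding genes, Dcn and Lum adjoin each other on chromosome 10, Prelp and Fmod on chromosome 1, and Ecm2, Aspn, Omd and Ogn form a row on chromosome 13. Dcn and Lum had a Pearson r of 0.46 (exact p = 0.297, adjusted p = 0.594) and a rho of 0.46 (exact p = 0.302, adjusted p = 0.678) over the 7 libraries, and 0.15 without the 2 farthest. Dcn was highest in Mdm2 C462A 2, where Lum was low at 82.0 normalized reads. Prelp and Fmod had an r of 0.71 (exact p = 0.0681, adjusted p = 0.306) and a rho of 0.82 (exact p = 0.0341, adjusted p = 0.307), with 0.87 without the 2 farthest libraries. Aspn and Ogn had an r of 0.68 (exact p = 0.0915, adjusted p = 0.306) and a rho of 0.86 (exact p = 0.0238, adjusted p = 0.286), with 0.49 without the 2 farthest libraries. Omd, the keratan sulfate proteoglycan osteomodulin, lies between them and had 414 and 153 normalized reads in Mdm2 C462A, 358 and 315 in p53/Mdm2 KO, and 1171, 276 and 506 in p53 KO. Ecm2, on the other side of Aspn, had 84.2 and 79.4 in Mdm2 C462A, 77.0 and 113 in p53/Mdm2 KO, and 566, 96.5 and 110 in p53 KO. Ecm2, Omd and Ogn were all highest in p53 KO 1, while Aspn was highest in p53 KO 3.

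**Figure D4:**
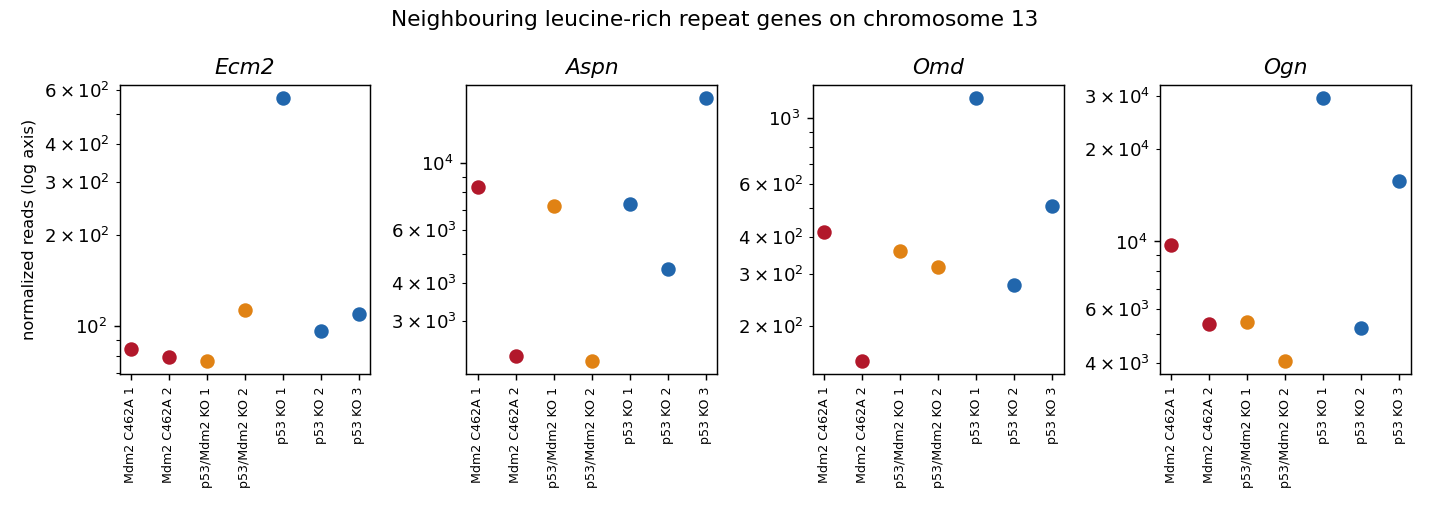
Normalized reads of Ecm2, Aspn, Omd and Ogn, in their order on chromosome 13, in each of the 7 libraries on log axes. The p53 KO replicate 1 point is the highest for Ecm2 (566), Omd (1171) and Ogn (29431) and is 7319 for Aspn, whose highest point is p53 KO replicate 3 at 16424.

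Keratocan (Kera) and epiphycan (Epyc), which follow Lum on chromosome 10 and are known from cornea and cartilage, had few reads. Kera was at 0 in 4 of 7 libraries and at most 15.1 normalized reads, in p53 KO 3. Epyc was at most 28.2, in Mdm2 C462A 2. Opticin (Optc), which adjoins Prelp, had 85.2 and 38.8 normalized reads in Mdm2 C462A, 83.5 and 104 in p53/Mdm2 KO, and 122, 82.6 and 173 in p53 KO.

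Likeness of pattern was measured by Pearson r over the 7 libraries on the log2-like scale, among up to 5506 other genes with a mean of at least 100 normalized reads and a range of at least 1. The values are a description, without a test, over libraries grouped by genotype, and whether any share a culture is not given. Podn was most like Vwa5a (r = 0.991), Spats2l (0.984) and the PDGF receptor gene Pdgfra (0.980). Aspn was most like the protease gene Adamts4 (0.970), D0H4S114 (0.965) and the other PDGF receptor gene, Pdgfrb (0.960). Lum was most like the semaphorin gene Sema5a (0.990), Zfp521 (0.973) and Efna2 (0.973). Fmod was most like Rarres1 (0.991), Pdlim4 (0.990) and Gm12824 (0.981), and Vcan like Tac1 (0.991), Pde8b (0.990) and Arhgap31 (0.989). The 3 genes most like Fmod were all highest in p53 KO 1, and the 3 most like Vcan were all lowest there. Over the 6 libraries without p53 KO 1, the r with Fmod was 0.986 for Rarres1, 0.947 for Pdlim4 and 0.931 for Gm12824, and the r with Vcan was 0.956 for Tac1, 0.993 for Pde8b and 0.973 for Arhgap31. Prelp was most like Limch1 (0.987), Sepx1 (0.956) and Csf1r (0.941), and Ogn like Atp8b1 (0.973), 2510009E07Rik (0.965) and AK189470 (0.963). Dcn was most like Tmem205 (0.962), Slc37a3 (0.960) and Ccpg1 (0.953), and Bgn like Lsp1 (0.952), Oaf (0.948) and AK196015 (0.938).

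Other genes of the same pathway were read as lists chosen by role, and 0 genes of any list passed the adjusted threshold in any of the 3 comparisons. Of the 10 listed family genes that are not members, 8 were tested, and 0 had an unadjusted limma p under 0.05 in any comparison. The nearest was podocan-like 1 (Podnl1), with 868 ± 220 (SD, n = 2) normalized reads in p53/Mdm2 KO and 311 ± 51.2 (SD, n = 3) in p53 KO, a difference of 1.41 (limma unadjusted p = 0.0518, adjusted p = 1). Tsukushi (Tsku), the other family gene with a high mean, had 1286 ± 55.1 (SD, n = 2) in Mdm2 C462A, 1434 ± 283 (SD, n = 2) in p53/Mdm2 KO and 1366 ± 462.4 (SD, n = 3) in p53 KO. Of the enzymes that build chondroitin and dermatan sulfate chains, 21 of 22 were tested, and 1 was higher and 4 lower in Mdm2 C462A than in p53 KO at an unadjusted p under 0.05, with a median difference of -0.33. Over all genes 10.4% were below that p in this comparison, in either direction, and 5.44% of all genes were below it and lower. In p53/Mdm2 KO against p53 KO 3.0% were below it in either direction, with 251 of the 16900 genes lower. Fam20b, the kinase that phosphorylates the xylose of the linkage, had 2508 ± 392 (SD, n = 2) normalized reads in Mdm2 C462A, 2735 ± 160 (SD, n = 2) in p53/Mdm2 KO and 3604 ± 162 (SD, n = 3) in p53 KO. Its difference from p53 KO was -0.53 for Mdm2 C462A and -0.40 for p53/Mdm2 KO. Csgalnact2, which starts the chondroitin chain, ran the other way, with 2649 ± 569 (SD, n = 2) in Mdm2 C462A, 2411 ± 185 (SD, n = 2) in p53/Mdm2 KO and 1654 ± 221 (SD, n = 3) in p53 KO. The chain-extending synthase gene Chsy1 had 1816 ± 339 (SD, n = 2) in Mdm2 C462A, 2157 ± 30.8 (SD, n = 2) in p53/Mdm2 KO and 3005 ± 669 (SD, n = 3) in p53 KO. For p53/Mdm2 KO against p53 KO, 1 of the 21 was higher (Csgalnact2) and 1 lower (Fam20b) at an unadjusted limma p under 0.05, and between the mutants 0 were.

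Keratan sulfate synthesis had 9 of 10 genes tested. At an unadjusted p under 0.05, 1 was lower in Mdm2 C462A than in p53 KO, against 5.44% of all genes that were lower. This was Chst1, the galactose 6-sulfotransferase of keratan sulfate, with 88.0 ± 25.9 (SD, n = 2) normalized reads in Mdm2 C462A, 329 ± 138 (SD, n = 2) in p53/Mdm2 KO and 281 ± 23.0 (SD, n = 3) in p53 KO. Its difference was -1.51 against p53 KO (limma unadjusted p = 0.003, adjusted p = 0.437) and -1.66 against p53/Mdm2 KO (limma unadjusted p = 0.00291, adjusted p = 1). Over the 9 genes, 5 were higher and 4 lower against p53 KO with a median of 0.14, which was -0.16 without p53 KO 1.

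Of 20 hyaluronan and versican partners 15 were tested. At an unadjusted p under 0.05, 1 was higher and 1 lower in Mdm2 C462A than in p53 KO, against 10.4% of all genes in either direction. These were the link protein gene Hapln4, with 347 ± 316 (SD, n = 2) normalized reads in Mdm2 C462A and 38.3 ± 19.8 (SD, n = 3) in p53 KO, and the hyaluronan receptor gene Hmmr, with 1750 ± 1025 and 3751 ± 403 in the same groups. Mdm2 C462A 1 and Mdm2 C462A 2 had 123 and 571 for Hapln4, and 2475 and 1025 for Hmmr. The list of proteases that cut versican or the small proteoglycans held 13 genes, among them Timp3, which encodes a protease inhibitor. Adamts1 had 7508 ± 4181 (SD, n = 2) in Mdm2 C462A and 20810.3 ± 8091 (SD, n = 3) in p53 KO, a difference of -1.52. The collagenase gene Mmp13 had 476 ± 459 (from 151 and 801) and 47.8 ± 29.4 in the same groups, a difference of 2.62. Both had an unadjusted limma p under 0.05, against 10.4% of all genes in either direction, and the other 11 listed genes did not in that comparison. Of the 12 collagens, 10 were below 0 in Mdm2 C462A against p53 KO, with a median of -1.06, and 9 in p53/Mdm2 KO, with a median of -0.67. Over all genes 48.8% and 51.8% were below 0 in those comparisons, with medians of 0.01 and -0.01. Without p53 KO 1 the collagen medians were -1.04 and -0.95. Col3a1 had 62561 ± 48282 (SD, n = 2) normalized reads in p53/Mdm2 KO and 143770 ± 39471 (SD, n = 3) in p53 KO, without overlap, a difference of -1.41 (limma unadjusted p = 0.0412, adjusted p = 1). It was the 1 collagen of 12 with an unadjusted limma p under 0.05 in this comparison, against 3.0% of all genes in either direction. Col1a1, Col5a2 and Col6a3 were also lower without overlap and the other collagens overlapped, while 18.2% of all genes did not overlap in either direction. Col6a3 had 14008 ± 10517 (SD, n = 2, from 21444 and 6572) normalized reads in Mdm2 C462A, 18218 ± 3295 (SD, n = 2) in p53/Mdm2 KO and 37155 ± 10932 (SD, n = 3) in p53 KO. Col5a1 had 37971 ± 14189 (SD, n = 2) in Mdm2 C462A, 54421 ± 2725 (SD, n = 2) in p53/Mdm2 KO and 92038 ± 39203 (SD, n = 3) in p53 KO. Col6a3 and Col5a1 were the 2 collagens with an unadjusted limma p under 0.05 in Mdm2 C462A against p53 KO, both lower, against 5.44% of all genes that were lower. Col2a1, the cartilage collagen, was the collagen below that level between the mutants, where 2.98% of all genes were in either direction. It had 265 ± 311 (SD, n = 2) in Mdm2 C462A and 1757 ± 558 (SD, n = 2) in p53/Mdm2 KO, a difference of -3.26. Its Mdm2 C462A libraries had 485 and 45.9, the lower being Mdm2 C462A 2. The versican-cleaving protease gene Adamts20 had 62.9 ± 43.5 (SD, n = 2) in p53/Mdm2 KO and 251 ± 174 (SD, n = 3) in p53 KO, a difference of -1.61, with an unadjusted limma p of 0.0427 and overlapping libraries.

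Among 14 growth factors and receptors bound by the small proteoglycans, Tgfb2, a decorin-bound growth factor, had 995 ± 538 (SD, n = 2) normalized reads in Mdm2 C462A, 1286 ± 604 (SD, n = 2) in p53/Mdm2 KO and 2930 ± 1042 (SD, n = 3) in p53 KO. Met, the hepatocyte growth factor receptor that decorin binds, had 5801 ± 502 (SD, n = 2) in Mdm2 C462A, 5219 ± 671 (SD, n = 2) in p53/Mdm2 KO and 3295 ± 989 (SD, n = 3) in p53 KO. These were the 2 of 14 with an unadjusted limma p under 0.05 in Mdm2 C462A against p53 KO, against 10.4% of all genes in either direction. Of 18 tested genes for other matrix and cell-surface proteoglycans, 5 were lower and 0 higher at that level in the same comparison, against 5.44% of all genes that were lower. Syndecan 1 (Sdc1) had 3436 ± 1209 (SD, n = 2) in Mdm2 C462A, 5315 ± 273 (SD, n = 2) in p53/Mdm2 KO and 7291 ± 819 (SD, n = 3) in p53 KO, a difference of -1.12 for Mdm2 C462A against p53 KO (limma unadjusted p = 0.00317, adjusted p = 0.437). Cspg4, the NG2 proteoglycan, had 4048 ± 2379 (SD, n = 2) in Mdm2 C462A, 7485 ± 16.1 (SD, n = 2) in p53/Mdm2 KO and 8368 ± 1816 (SD, n = 3) in p53 KO. Col18a1, a heparan sulfate proteoglycan of basement membranes, had 534 ± 114 (SD, n = 2) in Mdm2 C462A, 310 ± 37.2 (SD, n = 2) in p53/Mdm2 KO and 2526 ± 2360 (SD, n = 3) in p53 KO, where p53 KO 1 alone had 5223. Its difference from p53 KO was -1.80 for Mdm2 C462A and -2.54 for p53/Mdm2 KO, and -1.07 and -1.81 without p53 KO 1. For p53/Mdm2 KO against p53 KO, 1 of the 18 was higher and 1 (Col18a1) lower at an unadjusted limma p under 0.05, and between the mutants 0 were higher and 2 (Sdc1 and Cspg4) lower. Over all genes 3.0% and 2.98% were below that p in these comparisons, in either direction.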

How the data were processed

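RNA-seq libraries of 7 mouse embryonic fibroblast samples were grouped by their titles. The authors deposited 1 table of log2-like values for 29955 genes, with 3.36 as the value of an unread gene. Per the submitters' processing notes the tools were Bowtie2 2.1.0, CASAVA 1.8.2 and DESeq 1.14.0, and the build was mm9, with no roles stated. No counter, annotation or strand setting is named in these sources, so reads of overlapping and antisense genes cannot be told apart.

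The deposited log2-like values have the form of a variance-stabilizing transformation. Inverting that form gave normalized reads, and 100% of values above 0 in every library then lay within 0.05 of a whole read. Recovered totals were 28468283 to 41453822 reads. Linear levels are these normalized reads. Exon lengths, as the union of exons over all transcripts of a gene, came from GENCODE on GRCm38, used for lengths and not coordinates of the reads. Promoter windows and gene order came from RefSeq on GRCm38.p6.

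Limma 3.58.1 (R 4.3.3) was fitted to the deposited values as group means over all 7 samples in 1 fit, with eBayes trend (4 residual degrees of freedom), over 16900 genes with a mean of at least 10 normalized reads. P-values are two-sided with Benjamini-Hochberg adjustment over those genes and a threshold of 0.05, and the fit was tested on simulated data. As nothing says that replicates are separate cultures or animals, p-values measure only the spread among the libraries, which may be technical. Differences of genes with low levels are understated on the log2-like scale. Correlations used exact permutation tests over samples. Replicate numbers were not used to pair samples across groups in the main fit, and whether they do pair them could not be settled.

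All 9 members are named. From each other list, up to 3 genes with a mean of at least 100 normalized reads and the smallest unadjusted p, under 0.05 in a comparison, are named, or otherwise the 2 with the highest mean. Likeness took the 3 highest Pearson r. Members, lists and rules were chosen with earlier results of these data known. Alternatives changed the pseudocount, the filter, the scaling, the variance model or the weights, added a replicate block, or left out samples. Values of the lists, the spread and the likeness without p53 KO 1 were added after seeing the data.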

Additional observations from a re-analysis of the deposited data

How the results depend on the processing

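Each of the 27 member differences was recomputed under 21 alternatives. No member passed the adjusted threshold in any of them (lowest limma adjusted p 0.326), and 13 of the 27 kept their sign throughout. All 31 values of opposite sign belonged to the other 14 differences, and 21 of these came from leaving out 1 library.

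Under leave-one-out, Mdm2 C462A against p53 KO ranged from -1.81 to 0.03 for Aspn, -1.91 to 2.52 for Lum, -1.63 to 1.68 for Podn and -0.90 to 0.93 for Vcan. For p53/Mdm2 KO against p53 KO the ranges were -2.77 to 1.32 for Dcn, -0.17 to 0.21 for Bgn, -2.41 to 1.12 for Lum, -2.84 to 0.52 for Podn and -0.57 to 1.26 for Vcan. Between the mutants they were -0.79 to 1.05 for Aspn, -1.27 to 3.16 for Lum, -0.49 to 2.87 for Podn and -0.96 to 0.30 for Vcan.

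With both p53 KO 1 and Mdm2 C462A 2 left out, Mdm2 C462A against p53 KO was 0.10 for Ogn and -0.27 for Vcan, p53/Mdm2 KO against p53 KO was -0.01 for Bgn and -0.57 for Vcan, and Vcan between the mutants was 0.30. The same setting called 1 gene for p53/Mdm2 KO against p53 KO (limma adjusted p 0.0315), and no other alternative changed a count of 0 in any comparison. Sample weights gave -0.44 for Lum and -0.79 for Vcan in Mdm2 C462A against p53 KO, and -0.46 for Vcan in p53/Mdm2 KO against p53 KO. Limma's voom on the recovered reads gave -0.01 for Podn in Mdm2 C462A against p53 KO. Without p53 KO 1, chosen for the list genes after seeing the data, p53/Mdm2 KO against p53 KO turned to -0.19 for Tsku and 0.28 for Mmp13. The cause of these changes was not tested.

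Whether replicate numbers pair the samples could not be settled. Same-numbered samples had correlations of deviations between -0.16 and 0.20, and differently numbered ones between -0.23 and 0.23. In a group of 2 libraries the deviations mirror each other, so these correlations cannot exclude pairing. A replicate block called 0 genes in each comparison and turned Lum in p53/Mdm2 KO against p53 KO to 0.51. Limma called 0 genes, with an unadjusted p under 0.05 for 1761 in Mdm2 C462A against p53 KO, 507 in p53/Mdm2 KO against p53 KO and 503 between the mutants, and voom also called 0 in each. edgeR and DESeq2 were not run, since the deposited unit is not counts. Every member value rests on at least 41 reads. The library with the fewest reads, p53/Mdm2 KO 2 at 28468283, was the lowest for 5 members, and the part of depth in this was not tested.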
